A study of Mus musculus with 53 samples.

Results

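The genes described here are those of the core autophagy machinery, and they were followed in SCA3 mice and their wild-type controls through 4 brain regions. They were picked out by gene symbol from a list of 40 autophagy genes. Of these, 39 had a row among the 12372 genes of the counts table, and Atg4a was not analysed here. The mice were male C57BL/6 animals of 74 to 77 weeks that had all gone through motor tests earlier in life. SCA3 mice were hemizygous for the MJD84.2 transgene, in which the human ATXN3 promoter drives ATXN3 with an expanded CAG repeat, and they kept their own mouse Atxn3 genes. They come from a single transgenic line, and the labels give no other allele or treatment in either genotype. RNA was sequenced from dissected tissue of 14 mice (8 wild-type and 6 SCA3), which gave 53 libraries with 1 library per mouse and region: brainstem had 8 wild-type and 6 SCA3 libraries, cerebellum and cortex had 7 and 6 each, and striatum had 8 and 5.

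Autophagy delivers cytoplasm, organelles and aggregated protein to the lysosome in a double-membrane vesicle, the autophagosome. The ULK1 kinase complex starts the process, a lipid kinase complex around Beclin 1 marks the membrane, ATG9 vesicles and lipid transfer proteins feed it, and a conjugation system couples proteins of the LC3 and GABARAP families to its lipids, where cargo receptors such as p62 and optineurin dock. Neurons depend on this basal turnover, and it is one of the routes by which polyglutamine proteins such as expanded ataxin-3 are cleared. Transcript levels, which were measured here, do not report autophagic flux.

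The values were read counts per gene, shown as CPM, that is, divided by the normalised total of each library and brought to one scale. Libraries held 31.7 to 76.7 M (mega) counts, and an autophagy gene had between 164 and 43399 counts in a library. The regions carried their own neuronal markers: the summed CPM of 10 striatal projection neuron genes had a wild-type median of 4791 in striatum (2245 to 9690) against 2322 in cortex (679 to 3214, so that the ranges overlapped) and under 500 in brainstem and cerebellum, and 6 cerebellar neuron genes had a median of 4632 in cerebellum against 244 or less elsewhere. The cortical markers had a median of 2049 in cortex (879 to 2855) and 524 or less elsewhere, but striatum reached 1221, so that these ranges overlapped. No marker of brainstem neurons was analysed here. In cerebellum, 3 choroid plexus genes had a median sum of 140 CPM in wild-type (20 to 2118) and 1138 in SCA3 mice (658 to 1998). The striatal libraries of wild-type mice 7267059 and 7267058 stood apart, with 3398 and 2036 CPM summed over 11 thalamic genes, where the other 11 striatal libraries had 304 to 635. The striatal calls of autophagy genes in SCA3 against wild-type mice are therefore also given without these libraries. The RNA integrity number (RIN) was higher in SCA3 brainstem, at 7.78 ± 0.264 (SD, n = 6) against 7.24 ± 0.424 (n = 8; exact two-sided permutation test, p = 0.011), and the 3 other regions had p-values of 0.19 to 0.91. The human transgene was not analysed here, and mouse Atxn3 showed a log2 fold change between 0.0059 in brainstem and 0.33 in striatum, passing the test in striatum (FDR = 0.00012) and not elsewhere. Bodyweight was lower in SCA3 mice (31.0 ± 2.55 g, n = 6, against 43.4 ± 5.61 g, n = 8; exact two-sided permutation test, p = 0.00033).

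The first question was how evenly the machinery is expressed over the wild-type brain. All members were transcribed in all regions. Levels of different genes were compared per kilobase of exon, which takes out the effect of transcript length. On this scale Gabarapl1, an LC3 relative that is attached to autophagosomes and abundant in neurons, came first, with a mean of 260.0 CPM per kb over the 4 wild-type regions. It was followed by Sqstm1, which encodes the cargo receptor p62, at 143 CPM per kb. The LC3 and GABARAP genes Map1lc3a, Gabarap and Map1lc3b came next at 86.5, 78.4 and 63.5 CPM per kb, ahead of the cargo receptors Tax1bp1 (56.3) and Nbr1 (49.4). The last places were taken by Atg10 (5.02), the E2-like enzyme of the ATG12 conjugation, Atg4d (4.78), an LC3 protease, and Tfeb (4.54), a transcription factor for lysosomal and autophagy genes. The first 7 places were thus held by LC3 and GABARAP genes and cargo receptors.

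**Figure D1:**
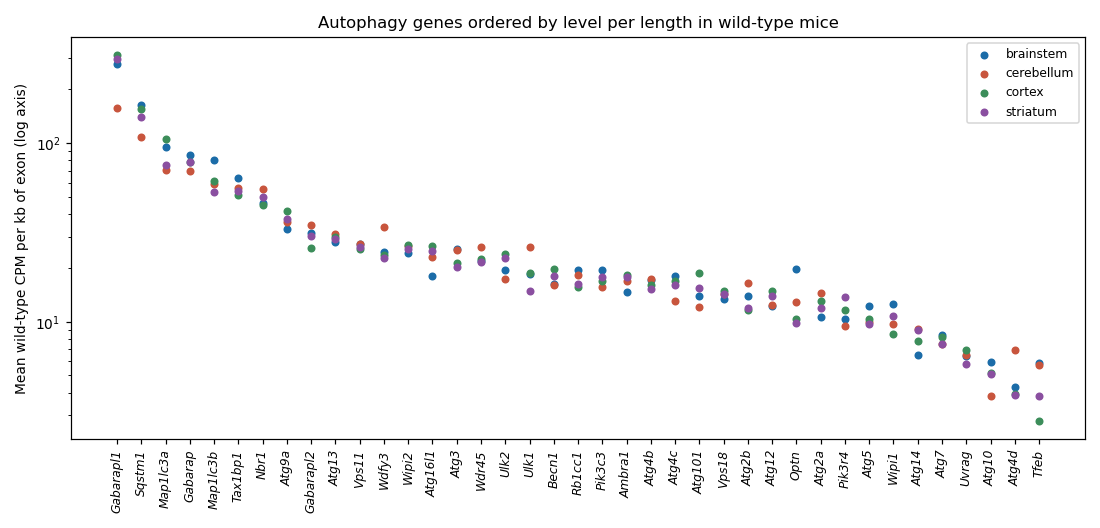
Mean wild-type CPM per kilobase of exon (log axis) for the 39 autophagy genes, with 1 point per region and the genes in order of their mean over the regions. Gabarapl1 leads at 260.0 CPM per kb and Tfeb is last at 4.54, and most genes have their 4 regions close together.

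Most autophagy genes differed between wild-type regions, but by small amounts. In the test across all 4 regions, 38 of 39 were called at a false discovery rate (FDR) below 0.05, against 93.0% of all genes tested, and Vps18, a subunit of the HOPS and CORVET tethering complexes, was not (FDR = 0.15). The range from the lowest to the highest regional mean had a median of 0.42 on the log2 scale over the autophagy genes and of 0.58 over all genes. It was under 0.5 for 25 members (64.1%, against 42.2% of all genes) and over 1 for 2 members, Tfeb and Optn (5.13%, against 26.6%). The members were also more abundant than the table as a whole, with a median of 74.6 CPM against 37.3. Brainstem held the highest mean of 15 members (38.5%, all genes 28.0%), cortex of 12 (30.8%, all genes 22.4%) and cerebellum of 11 (28.2%, all genes 33.7%). Striatum held that of 1 (2.56%, all genes 16.0%), Pik3r4, which encodes the regulatory subunit of the lipid kinase complex. In tissue samples fewer cells of a type and less RNA per cell cannot be told apart, and glial content differed between regions: the summed CPM of 10 mature oligodendrocyte genes had a wild-type median of 18951 in brainstem, 8652 in striatum, 4853 in cerebellum and 4385 in cortex. Its part in these differences was not tested.

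**Figure D2:**
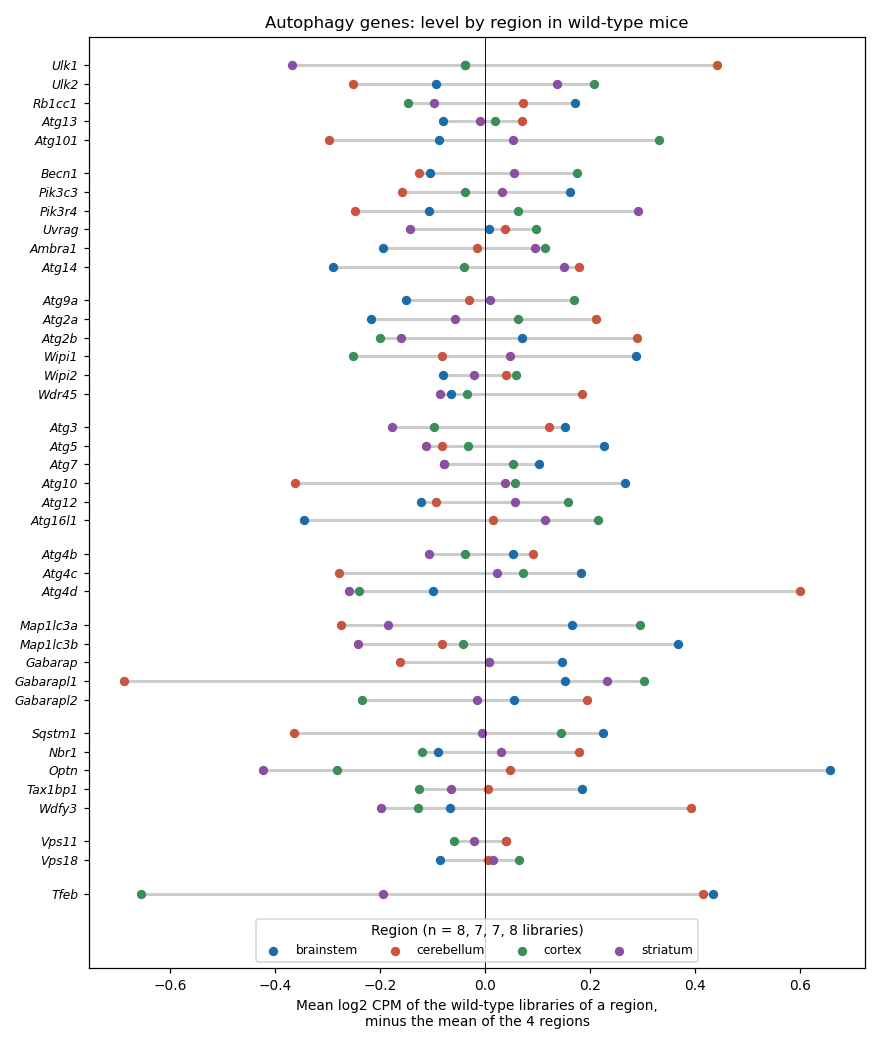
Mean log2 CPM of the wild-type libraries of each region, minus the mean of the 4 regions, for the 39 autophagy genes grouped by role. Tfeb and Optn spread the most, by 1.09 and 1.08, Gabarapl1 stands out by its low cerebellar level, and Vps11 spreads by 0.10.

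Between pairs of regions, the members were called at close to the share of all genes. Cerebellum against brainstem called 28 members (71.8%, all genes 72.6%), cortex against brainstem 27 (69.2%, all genes 65.4%) and striatum against brainstem 29 (74.4%, all genes 64.2%). Cortex against cerebellum called 28 (71.8%, all genes 69.7%) and striatum against cerebellum 23 (59.0%, all genes 69.5%). Striatum and cortex differed least, with 12 members called (30.8%, all genes 34.4%).

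Tfeb had the largest range over all wild-type libraries, at 1.09 against 1.08 for Optn (1.1 and 1.54 in SCA3 mice). In wild-type mice it measured 12.3 to 19.6 CPM in brainstem (median 17.1), 15.0 to 17.3 in cerebellum (16.5), 4.94 to 9.75 in cortex (9.23) and 6.82 to 15.9 in striatum (10.8). Every cortical library lay below every brainstem and cerebellar library, and the striatal libraries overlapped those of cortex. Their overlap with brainstem and cerebellum rested on mouse 7267059, one of the libraries rich in thalamic markers, at 15.9 CPM, and the other 7 reached 12.1 CPM at most, below every library of both regions. Cortex was below brainstem by a log2 difference of -1.06 (SE 0.13, FDR = 1.7e-15) and below striatum (striatum minus cortex 0.45, SE 0.13, FDR = 0.0023), while cerebellum and brainstem differed by -0.031 (SE 0.12, FDR = 0.83). TFEB belongs to the MiT family of factors, which bind the E-box CACGTG in promoters of lysosomal and autophagy genes. The 250 bases before the start were searched for CACGTG, a palindrome that reads the same on both strands. It was found in 3 of 36 member promoters (8.33%, from 31 members with an entry in the RefSeq promoter table for GRCm38.p6), in 6.02% of all 32851 promoters and in 8.28% of the 12279 promoters of genes in the table. The 3 promoters belong to Atg7, Atg5 and Atg3, the E1-like enzyme, the conjugation partner of ATG12 and the E2-like enzyme of LC3 lipidation. They are shown with the E-box in capitals, at chr6:114670846-114671095, chr10:44268089-44268338 and chr16:45158579-45158828, all on the plus strand. The start is one annotated by RefSeq and need not be the first of the gene: Atg7 begins at chr6:114643127 and Atg5 at chr10:44268322, so that both starts used here lie within the gene, as does the E-box of Atg7 and of Atg5.
Atg7: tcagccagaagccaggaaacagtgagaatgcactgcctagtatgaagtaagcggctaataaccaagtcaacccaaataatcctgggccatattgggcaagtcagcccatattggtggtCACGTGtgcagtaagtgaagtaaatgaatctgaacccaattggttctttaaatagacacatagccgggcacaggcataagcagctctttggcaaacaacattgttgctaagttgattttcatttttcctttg
Atg5: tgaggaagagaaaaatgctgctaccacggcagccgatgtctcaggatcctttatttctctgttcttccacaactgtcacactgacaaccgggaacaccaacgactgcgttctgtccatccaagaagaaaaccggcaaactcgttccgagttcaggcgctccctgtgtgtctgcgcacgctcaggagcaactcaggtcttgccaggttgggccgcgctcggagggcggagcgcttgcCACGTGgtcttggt
Atg3: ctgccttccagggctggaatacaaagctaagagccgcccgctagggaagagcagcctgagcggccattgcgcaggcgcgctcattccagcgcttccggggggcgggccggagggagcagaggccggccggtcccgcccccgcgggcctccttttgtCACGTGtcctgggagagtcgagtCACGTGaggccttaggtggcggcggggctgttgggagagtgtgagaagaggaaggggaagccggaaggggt
The E-box began 132 bases before the start in Atg7 and 14 bases before it in Atg5, and Atg3 held it at 94 and at 71 bases. The longer form TCACGTGA was found in the Atg3 promoter only, in 0.785% of all promoters and in 1.46% of those of genes in the table. These matches are descriptions of the letters, and binding was not measured. Beside the cortical low of Tfeb, Atg7 had a median of 33.2 CPM in wild-type cortex against 33.4 in brainstem, and the 2 regions did not pass the test (-0.041, SE 0.068, FDR = 0.60). Atg3 had a median of 43.9 in cortex against 54.8 in brainstem (-0.25, SE 0.067, FDR = 0.00035), and Atg5 had 24.8 against 29.1 (-0.26, SE 0.069, FDR = 0.00043).

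Among the LC3 and GABARAP genes, whose products coat the growing membrane, Gabarapl1 was the one with a marked low in cerebellum. It measured 236 to 340 CPM in wild-type cerebellum (median 299), 467 to 548 in brainstem (510), 531 to 604 in cortex (566) and 488 to 575 in striatum (541). Every cerebellar library lay below every library of the other regions. The log2 difference from brainstem was -0.83 (SE 0.063, FDR = 7.8e-37), and cortex stood 0.98 above cerebellum (SE 0.065, FDR = 1.2e-48). Cortex and striatum did not differ beyond their spread (-0.072, SE 0.063, FDR = 0.40), and cortex passed brainstem by 0.15 (FDR = 0.024) but not among wild-type libraries with the mouse as a replicate block (FDR = 0.060, against 0.047 without the block). Map1lc3b, an LC3 gene whose lipidated product is a common autophagosome marker, was highest in brainstem instead, at 171 to 236 CPM (median 207), against medians of 152 in cerebellum, 152 in cortex and 125 in striatum. Brainstem differed from the 3 other regions (log2 differences of -0.45, -0.40 and -0.61, with FDRs of 6.1e-07, 1.1e-05 and 4.3e-12), which did not pass the test among themselves (FDRs of 0.65, 0.094 and 0.053). The highest striatal values, 154 and 177 CPM, came from the 2 libraries highest in thalamic markers, and the other 6 had 120 to 128 CPM, below every cerebellar library (138 to 168) and no higher than the lowest cortical one (128 to 196). Map1lc3a had its lowest mean in cerebellum and its highest in cortex (0.58, SE 0.13, FDR = 1.4e-05). For this gene cerebellum did not pass against striatum (0.087, FDR = 0.53), nor cortex against brainstem (0.15, FDR = 0.29). Gabarap was lowest in cerebellum, and Gabarapl2 had its highest level in cerebellum and its lowest in cortex (-0.42, SE 0.058, FDR = 1.4e-12). The 5 genes therefore did not share a regional pattern. Exons of Gabarapl1 overlap 570 bases of 1700101I11Rik on the other strand, and exons of Map1lc3b overlap 58 bases of Zcchc14, and counts of overlapping genes could not be separated by strand.

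The initiation genes were split as well. Ulk1, the kinase that starts autophagosome formation, measured 117 to 166 CPM in wild-type cerebellum (median 134), 82.9 to 106 in brainstem (98.7), 86.7 to 113 in cortex (91.4) and 66.0 to 86.2 in striatum (79.2). Cerebellum was the highest and striatum the lowest (-0.81, SE 0.072, FDR = 2e-28), with brainstem and cortex between them and not distinguishable from each other (0.0015, SE 0.072, FDR = 0.99). Its paralog Ulk2 ran the other way, lowest in cerebellum (median 101 CPM) and highest in cortex (138; cortex minus cerebellum 0.47, SE 0.052, FDR = 3.5e-18). Atg101, which stabilises ATG13 in the complex, was also lowest in cerebellum, at 11.5 to 17.4 CPM (median 15.5), and highest in cortex, at 19.8 to 26.8 CPM (24.4; 0.63, SE 0.089, FDR = 7.6e-12). Atg13, the adaptor of the kinase, was among the most even of the members, with regional medians of 103 (brainstem), 114 (cerebellum), 105 (cortex) and 107 CPM (striatum) and a range of 0.15. Of its 6 pairs of regions, cerebellum against brainstem alone passed the test (0.15, SE 0.053, FDR = 0.0083).

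Of the conjugation machinery and the ATG4 proteases, which prepare LC3 for lipidation and recycle it, Atg4d and Atg10 varied most. Atg4d measured 38.7 to 44.3 CPM in wild-type cerebellum (median 41.6), 20.4 to 28.7 in brainstem (26.2), 17.7 to 28.5 in cortex (24.7) and 18.6 to 27.1 in striatum (22.8). The cerebellar libraries stood above all others, and cerebellum exceeded brainstem by 0.69 (SE 0.077, FDR = 2.4e-18). Exons of Atg4d share 1405 bases with Kri1 on the other strand, and reads over these bases could not be separated by strand. Atg10 had its lowest level in cerebellum, at 5.50 to 7.22 CPM (median 5.97), against 7.68 to 10.7 in brainstem (9.69; -0.62, SE 0.075, FDR = 5.8e-16). Cortex (median 8.35) and striatum (8.25) lay between and did not differ (-0.0085, SE 0.074, FDR = 0.94).

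Among the most even members, beside Atg13 and Wipi2, were the tethering subunits Vps11 and Vps18, shared by the HOPS and CORVET complexes that dock membranes at lysosomes and endosomes. Vps11 had medians of 95.3 CPM in brainstem, 97.3 in cerebellum, 88.9 in cortex and 92.6 in striatum, with a range of 0.10. Cortex was lower than brainstem (-0.10, SE 0.040, FDR = 0.015) and cerebellum (-0.10, SE 0.041, FDR = 0.021), and among wild-type libraries alone these had FDRs of 0.048 and 0.060, or 0.071 and 0.075 with the mouse as a replicate block. Vps18 had medians of 54.7, 57.8, 58.3 and 57.1 CPM in the same order of regions. Of its 6 pairs, cortex against brainstem passed the test (0.15, SE 0.064, FDR = 0.035), but not among wild-type libraries alone (FDR = 0.056, or 0.093 with the mouse as a replicate block).

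Among the cargo receptors, which tie ubiquitinated cargo to LC3, optineurin (Optn) varied most. Optn lies at chr2:5020521-5064399 on the minus strand of GRCm38. In wild-type mice it measured 47.3 to 57.3 CPM in brainstem (median 51.6), 30.3 to 37.8 in cerebellum (33.5), 21.9 to 31.4 in cortex (28.7) and 15.3 to 43.9 in striatum (24.0). All brainstem libraries exceeded all others, whereas the striatal libraries overlapped those of cerebellum and cortex and were the most scattered, with a coefficient of variation of 35.8% against 7.30% in brainstem, 7.60% in cerebellum and 14.6% in cortex. Without the 2 striatal libraries highest in thalamic markers, the other 6 had 15.3 to 29.3 CPM (21.8 ± 5.23, SD), below every cerebellar library, with a coefficient of variation of 24.0%. With all libraries, striatum fell below brainstem by a log2 difference of -1.0 (SE 0.12, FDR = 1.4e-14). It did not differ from cortex beyond the spread (-0.073, SE 0.13, FDR = 0.69). Without the 2 libraries highest in thalamic markers the striatal mean of 21.8 CPM stood beside 27.1 ± 3.95 (SD) in cortex, which was not tested. Cerebellum exceeded cortex (-0.32 for cortex minus cerebellum, SE 0.13, FDR = 0.027), but not among wild-type libraries alone (FDR = 0.057, or 0.077 with the mouse as a replicate block). Sqstm1 was highest in brainstem (median 462 CPM) and lowest in cerebellum (276 to 358 CPM; -0.59, SE 0.058, FDR = 1.7e-22), and Nbr1 and Wdfy3, the latter a large adaptor for aggregate clearance, were highest in cerebellum.

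**Figure D3:**
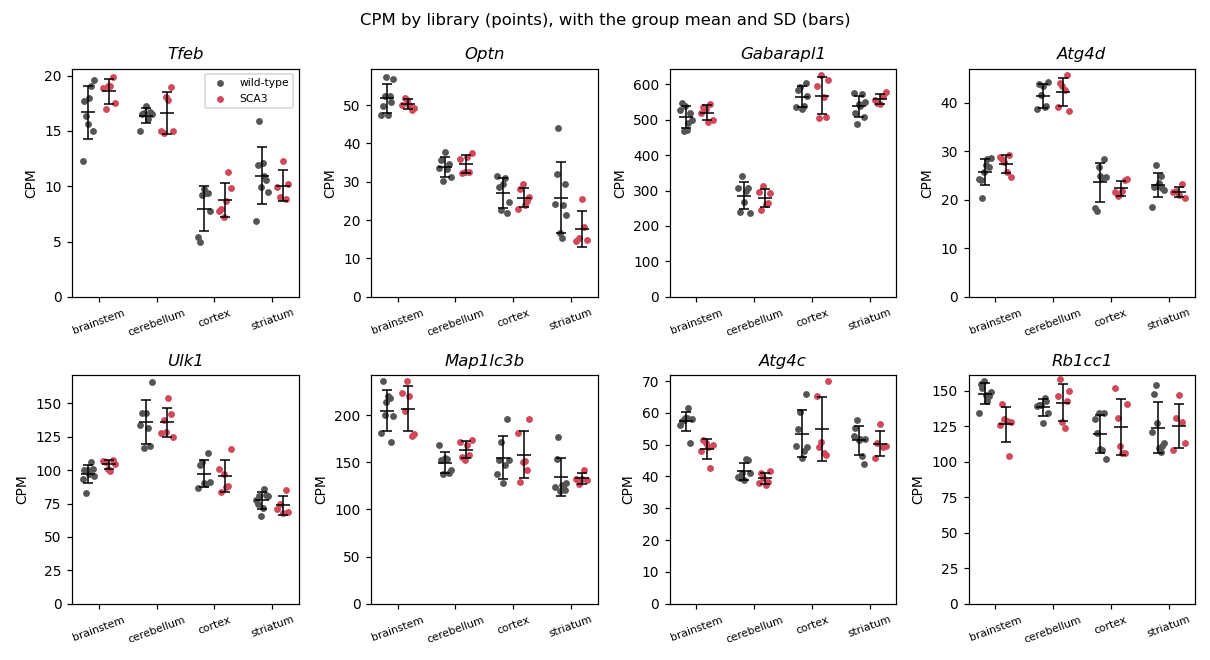
CPM of 8 autophagy genes in every library, with 1 point per library, wild-type in grey and SCA3 in red, and bars for the group mean and SD. Regions separate Tfeb, Gabarapl1 and Atg4d far more than genotype does, and the wide striatal scatter of Optn runs from 15.3 to 43.9 CPM in wild-type mice.

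The second question was whether the SCA3 transgene changed these genes. In brainstem, cerebellum and cortex, edgeR called 0 of 39 autophagy genes at an FDR below 0.05, against 1.92%, 0.0647% and 0.154% of all genes. The quasi-likelihood F test, DESeq2 and limma-voom also called 0 in each of these regions. Of all genes they called 1.62% to 2.49% in brainstem, 0.0404% to 0.0808% in cerebellum and 0.0727% to 0.162% in cortex. At an unadjusted p below 0.05 there were 3 members in brainstem (7.69%, all genes 13.3%), 0 in cerebellum (all genes 1.66%) and 0 in cortex (all genes 4.07%). In striatum 1 member was called, Optn, which was lower (2.56%, against 7.54% of all genes called and 5.47% called lower), and 4 members (10.3%, all genes 23.2%) had an unadjusted p below 0.05. The combined test over regions called 0 members (all genes 4.73%), with 3 at an unadjusted p below 0.05 (7.69%, all genes 16.6%). The test of region dependence also called 0 (all genes 0.218%), with 2 at an unadjusted p below 0.05 (5.13%, all genes 9.09%). The other tools again called 0 in both tests, and in the combined test they called 2.1% to 5.93% of all genes. The shares of members called were thus near or under those of the table in all 4 regions.

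The effects were also bounded, by intervals that use a dispersion per gene shared by all regions. They therefore do not follow the spread of a single region, which for Optn was widest in striatum. A fit of striatum alone called 0.711% of all genes. The 95% interval of the log2 fold change (SCA3 over wild-type) lay within ±0.5 for 39 of 39 members in brainstem, cerebellum and cortex and for 38 of 39 in striatum, Optn being the exception. It lay within the narrower band of ±0.3 for 33 members in brainstem, 36 in cerebellum, 36 in cortex and 35 in striatum. The median log2 fold change of the members was 0.026 in brainstem, -0.00013 in cerebellum, -0.0060 in cortex and 0.0056 in striatum, beside 0.0028, -0.0043, -0.0024 and -0.0031 over all genes. Directions were mixed, with 26 members higher and 13 lower in brainstem, 19 and 20 in cerebellum, 19 and 20 in cortex and 21 and 18 in striatum. The median size of the change regardless of sign was 0.055, 0.032, 0.040 and 0.070 in the same order, against 0.083, 0.044, 0.057 and 0.11 over all genes.

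**Figure D4:**
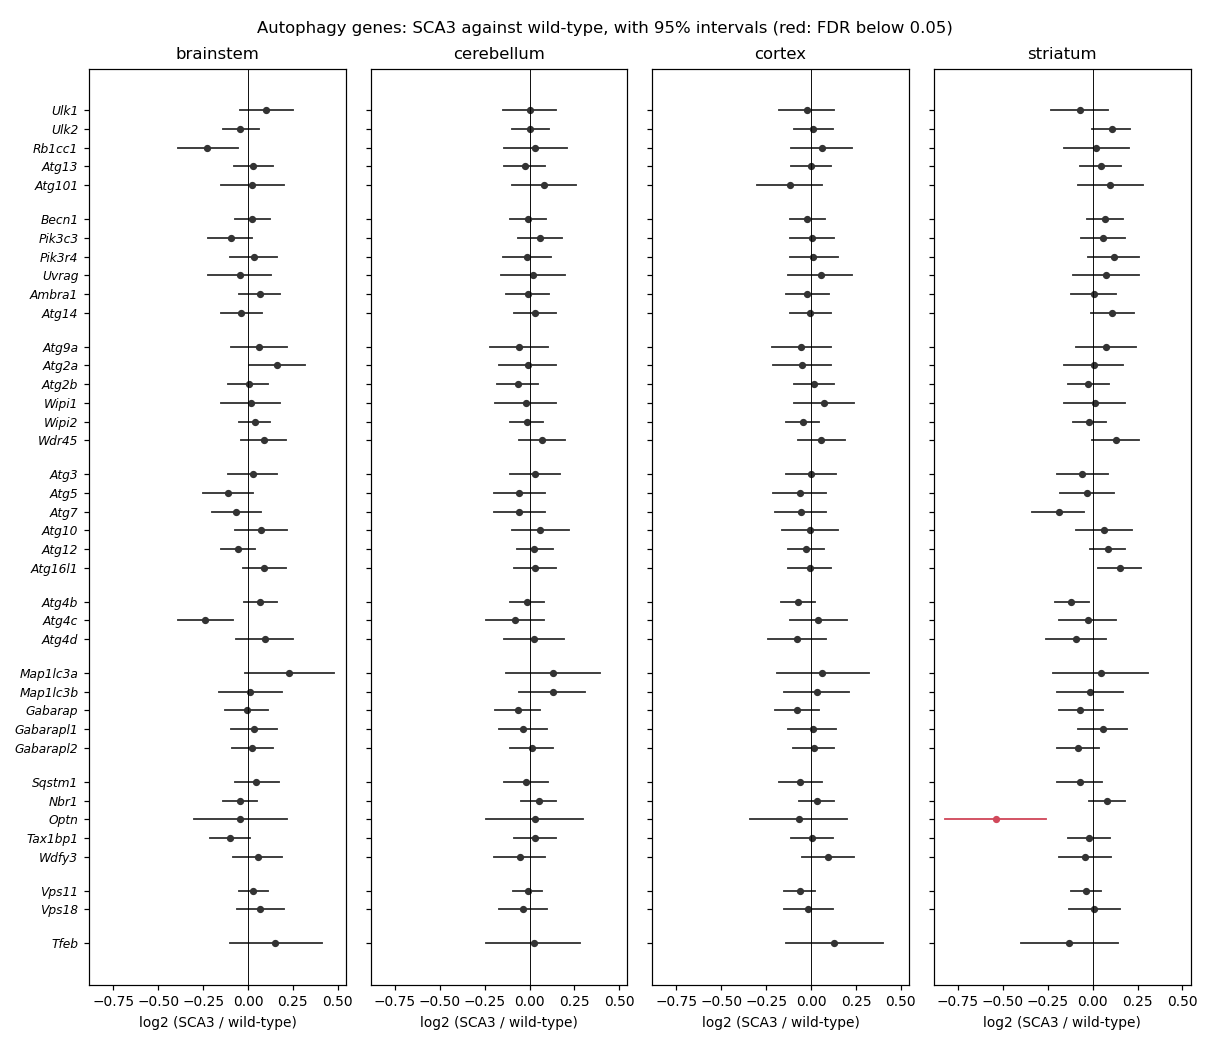
Log2 fold change of SCA3 over wild-type with its 95% interval for the 39 autophagy genes in each region, grouped by role. The intervals cluster around 0, and Optn in striatum, in red at -0.54, is the 1 member called at an FDR below 0.05.

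Read by role, Optn was the 1 gene that passed the test in any step of the pathway. The 5 initiation genes had changes between -0.23 (Rb1cc1) and 0.10 (Ulk1) in brainstem and between -0.073 (Ulk1) and 0.11 (Ulk2) in striatum. Beclin 1 (Becn1), which ataxin-3 is known to deubiquitinate at the protein level, showed a log2 fold change of 0.022 in brainstem, -0.0093 in cerebellum, -0.022 in cortex and 0.071 in striatum (SE 0.049 to 0.051, FDR 0.41 to 1.0), and its exons share 3104 bases with Cntd1 on the other strand. The other lipid kinase genes stayed between -0.097 (Pik3c3 in brainstem) and 0.12 (Pik3r4 in striatum). In striatum all 6 genes of that complex were on the higher side and none passed the test, the smallest FDR being 0.27. Without the 2 libraries highest in thalamic markers Ambra1 was at -0.0063, Pik3r4 at 0.063 and Atg14 at 0.054 (0.11 with them). Pik3c3 went the other way, from 0.059 to 0.099, and Ambra1 alone was on the lower side. The 6 genes of ATG9 vesicles, lipid transfer and PI3P binding ranged from -0.066 (Atg2b in cerebellum) to 0.16 (Atg2a in brainstem). In brainstem all 6 were on the higher side (median 0.050) and none passed, the smallest FDR being 0.36. The 3 measured ATG4 protease genes were all on the lower side in striatum, with a smallest FDR of 0.12, but without the 2 libraries highest in thalamic markers Atg4c was at 0.021 and Atg4b at -0.063 instead of -0.12. The conjugation genes ranged from -0.19 (Atg7 in striatum, SE 0.074, FDR = 0.082) to 0.15 (Atg16l1 in striatum, SE 0.062, FDR = 0.11). The 2 highest wild-type values of Atg7 in striatum, 34.2 and 35.6 CPM, came from the libraries highest in thalamic markers, and without these libraries the changes were -0.10 for Atg7 and 0.085 for Atg16l1 (both FDR = 0.54). The LC3 and GABARAP genes stayed between -0.084 (Gabarapl2 in striatum) and 0.23 (Map1lc3a in brainstem, SE 0.13, FDR = 0.42). Without the 2 libraries highest in thalamic markers the striatal change of Gabarapl2 was -0.023 and that of Map1lc3b 0.10 instead of -0.016. The log2 fold change of Tfeb itself was 0.15 in brainstem, 0.022 in cerebellum, 0.13 in cortex and -0.13 in striatum, each with an SE of 0.13 or 0.14, and without the 2 libraries highest in thalamic markers the striatal value was 0.0052. With those libraries left out, 23 members were higher and 16 lower in striatum. Of the members 0 were called (all genes 2.34%), and their median was 0.021 (all genes 0.0010).

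Sqstm1, whose protein p62 accumulates when autophagy is blocked, measured 456 to 513 CPM in SCA3 brainstem (median 477) against 439 to 492 in wild-type (462). In striatum it measured 361 to 407 CPM in SCA3 mice against 372 to 446 in wild-type, and the groups overlapped in both regions. Exons of Sqstm1 share 580 bases with Mrnip on the other strand. Its log2 fold changes were 0.046 (SE 0.061, FDR = 0.81) in brainstem and -0.072 (SE 0.064, FDR = 0.52) in striatum.

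Optn was the 1 member called. The 5 SCA3 striatal libraries had 14.6, 14.8, 15.3, 18.3 and 25.5 CPM, and the 8 wild-type libraries ran from 15.3 over a median of 24.0 to 43.9 CPM. The groups overlapped, since wild-type mice 9083371 (15.3) and 9082857 (16.5) lay among the SCA3 mice and SCA3 mouse 9082853 (25.5) lay among the wild-type mice. The log2 fold change was -0.54 (SE 0.14, 95% interval -0.82 to -0.26, edgeR FDR = 0.0079), with a dispersion shared by all regions. An exact two-sided permutation test of the mean CPM (17.7 ± 4.58, n = 5, against 25.8 ± 9.25, n = 8) gave p = 0.091. In the other regions Optn had log2 fold changes of -0.043 (brainstem), 0.033 (cerebellum) and -0.069 (cortex), and its region dependence had an FDR of 0.37 (unadjusted p = 0.017). The 250 bases before the Optn start of the RefSeq table are shown since Optn is the 1 called gene (chr2:5064118-5064367, minus strand, GRCm38.p6). They hold no CACGTG, and the whole window lies inside the annotated gene, so that bases before its outermost start at 5064399 were not searched.
Optn: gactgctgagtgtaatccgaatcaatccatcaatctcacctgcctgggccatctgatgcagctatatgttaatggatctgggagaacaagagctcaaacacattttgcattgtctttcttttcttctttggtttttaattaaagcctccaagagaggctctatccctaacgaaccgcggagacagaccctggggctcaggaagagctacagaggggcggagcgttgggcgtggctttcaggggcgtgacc

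Striatal Optn followed the thalamic signal of the libraries. The wild-type libraries with the most thalamic signal, mice 7267059 (3398 CPM over 11 thalamic genes) and 7267058 (2036), had the most Optn, at 43.9 and 31.9 CPM. The next thalamic sums belonged to wild-type mouse 9083373 (635), SCA3 mouse 9082853 (616) and wild-type mouse 7267055 (586), which had 29.3, 25.5 and 24.2 CPM of Optn. The libraries with thalamic sums of 304 to 350, which were 4 SCA3 and 2 wild-type libraries, had 14.6 to 18.3 CPM. Within either genotype the order of Optn thus followed the thalamic sum closely. All 11 thalamic genes were lower in SCA3 striatum and 8 of them were called, with a median log2 fold change of -1.56. Of 10 mature oligodendrocyte genes, 10 were lower and 4 called (median -0.39), and summed over the list they ran from 6070 to 9234 CPM in SCA3 striatum and from 6576 to 19127 in wild-type. The 3 highest oligodendrocyte sums, 19127, 13920 and 12173 CPM, belonged to wild-type mice 7267059, 7267058 and 9083371, which had 43.9, 31.9 and 15.3 CPM of Optn. Of 10 astrocyte genes, 10 were lower and 5 called (median -0.34), and the 10 measured striatal projection neuron genes were all on the higher side with 0 called (median 0.51). Without the 2 wild-type libraries highest in thalamic markers the log2 fold change of Optn was -0.30 (FDR = 0.19), and the other 6 wild-type libraries had 15.3 to 29.3 CPM. Among striatal libraries alone the log2 fold change of Optn was -0.54 (FDR = 0.30). Marker scores, the mean log2 CPM of a marker list in each library, then served as covariates. The log2 fold change of Optn was -0.18 with the thalamic score (FDR = 0.67) and -0.30 with the oligodendrocyte score (FDR = 0.60). Leaving out wild-type mouse 7267059 gave -0.39 (FDR = 0.054), and leaving out SCA3 mouse 7267054, 7267056 or 9083515 gave -0.48, -0.50 and -0.49 (FDRs of 0.065, 0.063 and 0.070). The part of thalamic and of glial content in the Optn difference was not tested.

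**Figure D5:**
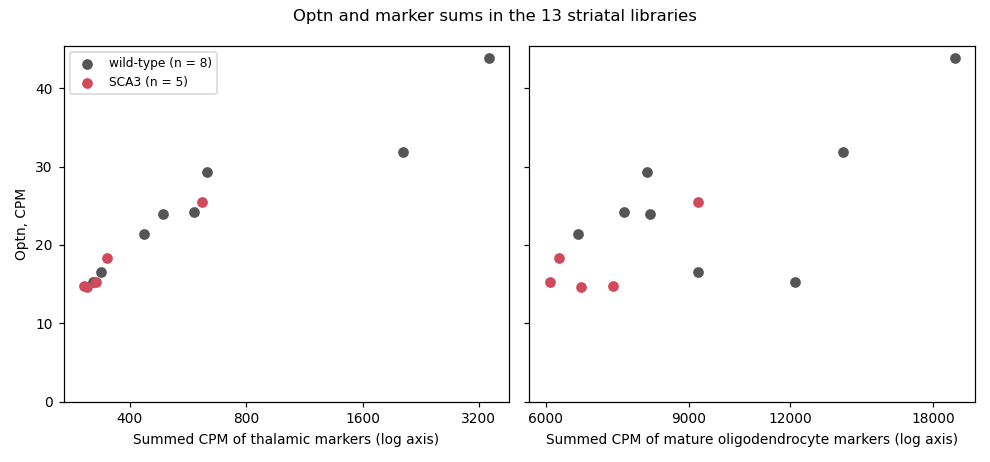
Optn CPM in the 13 striatal libraries against the summed CPM of 11 thalamic genes (left) and 10 mature oligodendrocyte genes (right), on log x axes, with wild-type in grey and SCA3 in red. Optn rises with the thalamic sum in both genotypes, and the wild-type libraries at 2036 and 3398 thalamic CPM have the highest Optn levels, 31.9 and 43.9 CPM.

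In brainstem, where no member was called, the smallest unadjusted p-values belonged to Atg4c and Rb1cc1. Atg4c, an LC3 protease at chr4:99189159-99297258, measured 42.8 to 51.5 CPM in SCA3 mice (median 49.5) and 50.6 to 61.5 in wild-type mice (median 58.0). The groups overlapped only through wild-type mouse 9083373, at 50.6 CPM. The log2 fold change was -0.24 (SE 0.079, unadjusted p = 0.0028, FDR = 0.098). Rb1cc1 encodes FIP200, the scaffold of the ULK1 complex, and measured 104 to 141 CPM in SCA3 mice (median 129) and 134 to 157 in wild-type mice (median 148). Its log2 fold change was -0.23 (SE 0.086, unadjusted p = 0.0086, FDR = 0.17), and its exons overlap 558 bases of the antisense gene 4732440D04Rik. In a fit of the brainstem libraries alone, edgeR called both (FDRs of 0.0077 and 0.027), 5.13% of members against 3.17% of all genes. It also called both with the thalamic score as a covariate (FDRs of 0.0053 and 0.017, against 5.22% of all genes). Atg4c was also called without wild-type mouse 9083373 (-0.27, FDR = 0.026, against 2.09% of all genes). With RIN as a covariate the changes were -0.23 for Atg4c (FDR = 0.15) and -0.21 for Rb1cc1 (FDR = 0.32), and among libraries whose RIN was 7 or more they were -0.23 (FDR = 0.14) and -0.22 (FDR = 0.23). Over 25 alternatives Atg4c ranged from -0.27 to -0.21 and Rb1cc1 from -0.26 to -0.18. The oligodendrocyte sum ran from 9435 to 15943 CPM in SCA3 brainstem (median 12083) and from 10346 to 21461 in wild-type (median 18951), and the astrocyte sum had medians of 3897 and 6077. The part of glial content in these values was not tested. In the other regions both genes stayed within ±0.08, with FDRs of 0.87 or more, but without the 2 libraries highest in thalamic markers the striatal change of Rb1cc1 was 0.13 (FDR = 0.54, against 0.018 with them).

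In cerebellum the smallest p-values belonged to Map1lc3b and Atg2b, a lipid transfer protein. Map1lc3b measured 152 to 174 CPM in SCA3 mice (median 163) and 138 to 168 in wild-type mice (152), a log2 fold change of 0.13 (SE 0.094, unadjusted p = 0.18). Atg2b measured 110 to 131 CPM (median 115) and 105 to 145 (122), a change of -0.066 (SE 0.058, unadjusted p = 0.26). In cortex they belonged to Atg4b and Vps11. Atg4b, the main LC3 protease, measured 60.9 to 67.5 CPM in SCA3 mice (median 62.8) and 61.5 to 70.2 in wild-type mice (67.3), a change of -0.072 (SE 0.048, unadjusted p = 0.14). Vps11 measured 83.0 to 89.8 CPM (median 85.6) and 86.9 to 94.6 (88.9), a change of -0.062 (SE 0.043, unadjusted p = 0.15). The groups overlapped for all 4 genes, and the FDR was 1.0 in each case.

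The regions at either end of the order were compared between genotypes. The region with the lowest mean was the same in both genotypes for 35 of 39 members (89.7%, against 79.7% of all genes) and the region with the highest for 28 (71.8%, against 81.4%). The full order of the 4 regions was the same for 21 members, and the share over all genes was not analysed here. Gabarapl1 was again lowest in cerebellum, at 244 to 312 CPM against 494 or more in the other regions, and Tfeb again lowest in cortex, with a median of 8.29 CPM.

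A wider list of 66 other autophagy genes was read beside the core machinery, among them upstream kinases, stress sensors, further receptors and transcription factors. None was called in brainstem, cerebellum or cortex (all genes 1.92%, 0.0647% and 0.154%), where 5, 0 and 1 had an unadjusted p below 0.05 (7.58%, 0% and 1.52%, against 13.3%, 1.66% and 4.07% of all genes). In striatum 5 were called (7.58%, against 7.54% of all genes), and all 5 were higher (2.07% of all genes were called higher). Calcoco1, an autophagy receptor of the endoplasmic reticulum and Golgi, measured 127 to 178 CPM in SCA3 striatum, in which its 5 libraries had a median of 161, and 98.6 to 164 in wild-type (median 124; log2 fold change 0.30, SE 0.081, FDR = 0.0085). Mitf, a relative of Tfeb, measured 19.1 to 29.3 CPM (median 21.7) against 12.0 to 23.1 (15.9; 0.43, SE 0.13, FDR = 0.019). Sesn1 and Sesn3 encode sestrins, which restrain mTORC1, and rose by 0.19 (SE 0.061, FDR = 0.033) and 0.37 (SE 0.12, FDR = 0.030). In brainstem the log2 fold change of Sesn3 was -0.25 (SE 0.11, unadjusted p = 0.029, FDR = 0.30), and its region dependence did not pass the test (unadjusted p = 0.0016, FDR = 0.16). Rubcn, listed in the table under an older symbol, encodes the autophagy inhibitor Rubicon and rose by 0.15 (SE 0.049, FDR = 0.045). In brainstem the log2 fold change of Rubcn was also 0.15 (SE 0.047, unadjusted p = 0.0012) and did not pass the test (FDR = 0.058). Among the striatal libraries alone, where 0.711% of all genes were called, the 5 changes had the same size to 2 decimals. None of them passed (FDRs of 0.21 to 0.35). Without the 2 libraries highest in thalamic markers, where 2.34% of all genes were called, Mitf still passed (0.54, FDR = 0.0057). The other 4 did not, at 0.21 for Calcoco1, 0.28 for Sesn3, 0.15 for Sesn1 and 0.13 for Rubcn (FDRs of 0.12 to 0.22). Among libraries whose RIN was 7 or more none of the 5 passed (Mitf 0.46, FDR = 0.069, and the others with FDRs of 0.13 to 0.26). In that setting 1.12% of all genes were called in striatum. Mitf also missed the threshold without SCA3 mouse 7267056 (0.41, FDR = 0.078), SCA3 mouse 9082853 (0.32, FDR = 0.10), wild-type mouse 9083372 (0.37, FDR = 0.061) or wild-type mouse 9083373 (0.39, FDR = 0.051). Calcoco1 did so without SCA3 mouse 7267054, 7267056 or 9083515 (FDRs of 0.051 to 0.088), and Sesn1, Sesn3 and Rubcn without 8, 7 and 12 of the 14 mice in turn. The combined test, which has no direction, called Rubcn, Mitf and Sesn3 (FDRs of 0.019, 0.027 and 0.045), or 4.55% of the list against 4.73% of all genes.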

How the data were processed

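The authors deposited raw read counts per gene, made from non-stranded poly-A libraries that were aligned with STAR 2.3.0e to GRCm38 and counted with HTSeq 0.6.1, for genes averaging above 4 CPM. Library totals were 31.7 to 76.7 M. Counts were fitted with edgeR 4.0.16 (R 4.3.3, TMM): all 53 libraries, 8 groups of region and genotype, likelihood ratio tests, Benjamini-Hochberg adjustment over 12372 genes, calls at an FDR below 0.05. Intervals are 1.96 SE. A log used a prior count of 2. The script was tested on simulated data. Alternatives were the quasi-likelihood test, DESeq2 1.42.0, limma-voom 3.58.1 with and without the mouse as a block, RLE factors, a minimum of 10 counts, RIN or mouse number series as a covariate, libraries whose RIN was 7 or more (49), a region alone with and without marker scores, wild-type libraries alone, and each mouse left out. Libraries of a number came from the same mouse, so mice pair regions (mean r of deviations 0.0904 to 0.186 over 6 pairs of regions); genotype is constant within a mouse. Full values were given for members called in a region, otherwise for the 2 smallest p-values, for the 8 largest and 3 smallest wild-type ranges, and for other autophagy genes called; further members are named as examples, chosen after their values were seen. The members and lists were chosen with earlier results of these data known. Exon overlaps and lengths are from GENCODE M21, positions from RefSeq GRCm38.p6. Bulk replicates are separate mice of 1 line.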

Additional observations from a re-analysis of the deposited data

Results flagged for a closer look

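Among 15 named genes in 8 groups of libraries each (120 groups), 5 libraries lay apart from the rest of their group by Dixon's criterion, where chance flags about 1 in 20 groups, or 6. Atg2b was highest at 115 CPM in brainstem of wild-type mouse 9082857, the next library having 108. Vps11 was lowest at 89.0 CPM in cerebellum of SCA3 mouse 9083514 (next 96.2). Atg101 was lowest at 15.8 CPM in brainstem of wild-type mouse 9083375 (next 17.3). Vps18 was highest at 65.9 CPM in cerebellum of SCA3 mouse 9083513 (next 56.2) and lowest at 50.2 CPM in striatum of SCA3 mouse 9082853 (next 58.9). The 5 values came from 5 mice, and the Optn values of the striatal libraries rich in thalamic markers were not among them.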

How the results depend on the processing

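The counts of members called in cerebellum and cortex and for region dependence were 0 under every alternative, and wild-type regions called 35 to 38. Of all genes, the alternatives called 0.0404% to 0.17% in cerebellum and 0.0727% to 0.323% in cortex. In brainstem, 2 members were called among the brainstem libraries alone and 2 with the thalamic score as a covariate. These were Atg4c and Rb1cc1 (5.13% of members, against 3.17% and 5.22% of all genes), and the cause was not tested. In striatum the call of Optn was lost (0 members) in several settings, where fewer of all genes were called than the 7.54% of the main fit. Among libraries whose RIN was 7 or more Optn was at -0.44 (FDR = 0.15, all genes 1.12%). With striatal libraries alone Optn was at -0.54 (all genes 0.711%). With the thalamic score as a covariate it was at -0.18 (all genes 0.962%), and with the oligodendrocyte score at -0.30 (all genes 2.97%). Without the 2 libraries highest in thalamic markers it was at -0.30 (all genes 2.34%). The cause was not tested. Leaving out each mouse in turn gave 0 to 1 members in brainstem, 0 to 3 in striatum and 0 to 1 in the combined test. In brainstem 1 was called without wild-type mouse 9083373 (all genes 2.09%). The combined test called Optn without SCA3 mouse 9082853 or wild-type mice 9082857 or 9083371 (all genes 6.64%, 8.48% and 6.94%). In striatum, Atg16l1 joined Optn without mouse 9082853, Atg16l1 and Atg7 did without 9082857, and Atg4b and Atg7 did without 9083371 (2, 3 and 3 of 39 members, against 1242, 1833 and 1649 of 12372 genes). Optn ranged from -0.71 to -0.39, and the cerebellar median from -0.0037 to 0.016 (the latter without mouse 9083371). With the mouse as a replicate block, Optn was -0.49 (FDR = 0.038, against 0.034 without the block), 38 members differed between wild-type regions, and the counts for the tests of genotype did not change. Among wild-type libraries alone, the 6 pairs of regions, in the order of the text, called 27, 26, 24, 25, 23 and 11 members without the block. With the block they called 27, 24, 25, 25, 25 and 11 (4 calls lost and 5 gained in 234 tests). Over all libraries they called 28, 27, 29, 28, 23 and 12. Shares of all genes are given for the fit of all libraries only. Brainstem medians stayed between 0.014 and 0.034. Tests cover the spread between mice of 1 line at 1 age, and effects smaller than the intervals given could not be seen.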
